A study of Homo sapiens with 10 samples.

Results

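The HSP70 and HSP110 chaperones described here are 7 genes: HSPA8, HSPA5, HSPA9, HSPA1A, HSPA1B, HSPA4 and HSPH1. They were chosen by name, and every entry of the 10 libraries whose Ensembl gene maps to one of these symbols was used. The members account for 2642 entries of the series, which lists edits in 10631 genes in all (7004 in HEK293T and 9753 in MDA-MB-231). Of the 7 members, 6 were listed in at least 1 library and HSPA1A in none.

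HSP70 proteins bind exposed hydrophobic stretches of client proteins and release them in a cycle driven by ATP hydrolysis. J-domain proteins deliver clients and start hydrolysis, and nucleotide exchange factors, among them the HSP110 proteins, remove ADP so that the client is let go. HSPA8 is the constitutive cytosolic HSP70, HSPA5 (BiP) that of the endoplasmic reticulum and HSPA9 (mortalin) that of mitochondria. HSPA1A and HSPA1B are the heat-inducible cytosolic pair, and HSPA4 and HSPH1 belong to the HSP110 branch.

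The study read C-to-U edits in coding sequences of polyadenylated RNA with long-read sequencing. HEK293T, a human embryonic kidney line, carried a doxycycline-inducible vector for the deaminase APOBEC1 alone (3 libraries) or for Ribo-STAMP, in which APOBEC1 is fused to the ribosomal protein RPS2 so that mRNA on ribosomes is edited (3 libraries), and was induced with 1 ug/mL doxycycline for 72 h. MDA-MB-231, derived from a triple-negative breast cancer, carried the Ribo-STAMP vector, was induced with 1 ug/mL doxycycline for 48 h, and was left untreated (2 libraries) or given 100 uM CoCl2 for 48 h, a cobalt salt used to mimic hypoxia (2 libraries). No library of MDA-MB-231 with APOBEC1 alone was used here, and the library kits and induction times differed between the lines, so values of the lines are set side by side without a test. The labels give replicate numbers but name no separate cultures, so each p-value measures only how these samples varied, which may be technical.

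The libraries held 2971 to 3498 edited reads each with APOBEC1 alone, 50908 to 65792 with Ribo-STAMP in HEK293T and 155572 to 177069 in the MDA-MB-231 libraries. All 6 MDA-MB-231 markers examined (such as CD44) were listed in every MDA-MB-231 library, and 5 of the 6 in no HEK293T Ribo-STAMP library. Of 5 HEK293T markers, 4 were listed in every HEK293T Ribo-STAMP library and NEFL in none. CKB, 1 of these 5, was also listed in all 4 MDA-MB-231 libraries. Values are called edited reads (reads with the edit, summed over the positions of a gene and divided by the relative depth of the library), coverage (reads over an isoform) or edited reads per 100 covering reads. In these bulk samples, fewer cells of a type and less RNA per cell cannot be told apart.

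The position with the most edited reads in MDA-MB-231 is shown for each member as an example of an edit. The following windows hold 10 coding bases on each side of the edited C, which is in capitals, and are written 5′ to 3′ on the strand of the gene, from GENCODE 29 transcripts on GRCh38.
HSPA8: cgcaaagaatCaagttgcaat
HSPA5: atggtgtcttCgaagttgtgg
HSPA9: aatcagaagaCaaagtcattg
HSPA4: ctgcatttgaCacgacattgg
HSPH1: gccccaggtaCaaactgatgc
Each edited C followed A or U (printed as t), the bases that APOBEC1 is known to favour before its target. Of all listed positions, only 24.7% in HSPA8 and 38.1% in HSPA5 did so, unlike in HSPA9, HSPA4 and HSPH1, where most did. The HSPA8 position, chr11:123061153, lies in exon 2 of 9 at coding base 172 and carried 22 edited reads of 17141, or 0.128% (exact Clopper-Pearson 95% interval 0.0805 to 0.194%, counting error only). The HSPH1 position, chr13:31143875 in exon 12 of 18, carried 11 of 656 reads, or 1.68% (0.840 to 2.98%). In both, the edited codon would read as a stop codon.

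The HSPA9 position, chr5:138567460 in exon 7 of 17, carried 20 of 1487 reads (1.34%), and its window spans an exon junction. The HSPA4 position, chr5:133076674 in exon 7 of 19, carried 11 of 958 reads (1.15%), and the HSPA5 position, chr9:125239211 in exon 5 of 8, 14 of 9123 (0.153%). Among the libraries that list them, the edited share at these positions was lowest in the 2 members of highest coverage and highest in HSPH1. The HEK293T entries did not match GRCh38, and no coordinate or sequence is given for them. Among HEK293T Ribo-STAMP libraries the most edited HSPA5 position held 9, 14 and 11 edited reads of 524, 522 and 710 reads in replicates 1, 2 and 3. The most edited HSPA4 position held 17 of 619 reads (2.75%, 1.61 to 4.36%).

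The heat-inducible pair was nearly unlisted. HSPA1A had no entry in any of the 10 libraries. HSPA1B had 2, each with 1 edited read, in HEK293T Ribo-STAMP replicate 2 (coverage of 1 read) and replicate 3 (coverage of 2 reads). Their coding sequences differ at 4 of 1923 aligned bases (99.8% identity), so reads of one could have been assigned to the other or left out. The files list only positions with an edited read, and for an unlisted gene they say nothing of its coverage. HSPA8, the nearest relative among the members, shares 74.1% of aligned coding bases with HSPA1A.

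In HEK293T the comparison of Ribo-STAMP with APOBEC1 alone, meant as a benchmark of the method, asked how much editing the ribosome fusion added to each transcript. All 5 members tested carried more edited reads with Ribo-STAMP, from 13.1 to 176 per library against 0 to 7.35. Nearly every gene did: 99.7% of the 654 genes tested were higher, with a median log2 difference of 3.75, and the members' count is near that background.

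HSPA5 carried 2.76, 6.87 and 7.19 edited reads in APOBEC1-only replicates 1, 2 and 3, and 109, 171 and 176 with Ribo-STAMP. HSPA9 carried 7.35, 2.95 and 7.19, and 104, 143 and 83.4. HSPA8 carried 0, 0.982 and 0, and 38.4, 71.7 and 25.3. No Ribo-STAMP library overlapped an APOBEC1-only library for these 3 chaperones, and HSPA8 had the lowest level of the 5 members in every APOBEC1-only library, level with HSPA4 at 0 in replicate 3 and at a single edited read in replicate 2. For the HSP110 genes, HSPA4 carried 3.67, 0.982 and 0 in APOBEC1-only and 80.1, 108 and 74.9 in Ribo-STAMP. HSPH1 carried 4.59, 3.93 and 2.40, and 137, 111 and 13.1. The groups of both genes were again apart, and Ribo-STAMP replicate 3 was low for HSPH1.

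**Figure D1:**
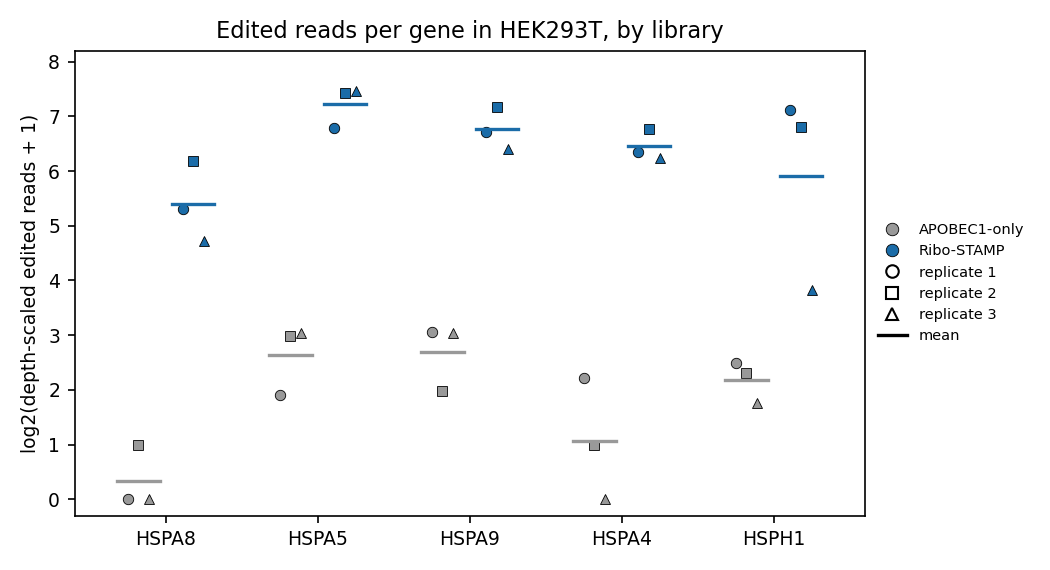
Edited reads per gene in the 6 HEK293T libraries, as log2 of the depth-scaled value plus 1, for the 5 members tested, with 1 point per library (shape gives the replicate) and a bar at the group mean. Every Ribo-STAMP point lies above every APOBEC1-only point of the same gene, and the lowest Ribo-STAMP point is HSPH1 in replicate 3, at 13.1 edited reads.

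With limma on log2(edited reads + 1), the difference was 5.38 ± 0.62 (SE) for HSPA4, 5.07 ± 0.62 for HSPA8, 4.58 ± 0.54 for HSPA5, 4.07 ± 0.55 for HSPA9 and 3.73 ± 0.65 for HSPH1. The adjusted p-values in limma ran from 9.22e-11 to 6.28e-07 (n = 3 against 3). The HSPA8 and HSPA4 differences rest on APOBEC1-only values of 0 and so depend on the 1 added before taking the log. TMM scaling, which sets the typical gene equal between libraries, moved the median of all genes from 3.75 to 0.75 and left 0 of 5 members called (adjusted p 0.239 to 0.974 in limma), against 3.82% of all genes higher. The levels of the editing constructs were not measured here, so their part in the difference was not tested.

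Every APOBEC1-only position of the members carried 1 edited read, and 1 of them, in HSPH1, was listed in more than 1 APOBEC1-only library. With Ribo-STAMP, positions recurred. Of 138 HSPA9 positions, 47.8% were listed in more than 1 Ribo-STAMP library, of 168 HSPA5 positions 37.5%, of 130 HSPA4 positions 36.2%, of 136 HSPH1 positions 32.4% and of 85 HSPA8 positions 29.4%. These shares were not corrected for how many edited reads each gene had.

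Coverage, the stand-in for mRNA abundance, could be compared for the 3 members with an isoform listed in all 6 HEK293T libraries. HSPA5 was covered by 458, 439 and 504 scaled reads in APOBEC1-only and 442, 541 and 677 in Ribo-STAMP. HSPA9 was covered by 225, 252 and 281, and 247, 271 and 241. HSPH1 was covered by 193, 207 and 104, and 267, 239 and 66.9. The groups overlapped for all 3, with HSPH1 lowest in replicate 3 of both groups. The log2 differences in limma were 0.23 (95% interval −0.45 to 0.90), 0.00 (−0.66 to 0.66) and 0.01 (−1.22 to 1.25), with adjusted p of 0.816, 0.995 and 0.993. Of 392 genes, 0% were called in either direction by limma, and 6 were higher and 24 lower at an unadjusted p under 0.05.

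Replicate 3 of Ribo-STAMP held fewer reads of long transcripts: its coverage against the mean of replicates 1 and 2 changed by −0.84 on the log2 scale per doubling of transcript length. The 2 longest member transcripts, HSPH1 (5191 bases) and HSPA4 (4825 bases), had 66.9 and 104 scaled reads there, against 239 to 267 and 225 to 245 in the other Ribo-STAMP libraries. HSPA9, of 2825 bases, had 241 against 247 and 271. The part of length in the HSPH1 value was not tested. Without that library all 5 members were still called higher in edited reads (HSPH1 log2 difference 4.78).

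Edited reads per 100 covering reads separated the groups for the same 3 members. HSPA5 had 0.621, 1.62 and 1.48 in APOBEC1-only and 24.5, 31.4 and 26.5 in Ribo-STAMP. HSPA9 had 3.37, 1.20 and 2.65, and 41.9, 52.9 and 35.3. HSPH1 had 1.47, 1.96 and 2.38, and 51.1, 45.9 and 20. The groups did not overlap for any of them, and all 3 were called higher by limma on the logit, with differences of 4.44, 4.15 and 4.03 (adjusted p 1.09e-08, 2.88e-07 and 4.01e-07), against 95.7% of 392 genes. After each library was centred on its median gene, only HSPA5 of the 3 stayed past the threshold (1.07, adjusted p = 0.0123 in limma), with 18.6% of all genes higher, while HSPA9 (0.77, adjusted p = 0.136) and HSPH1 (0.66, adjusted p = 0.204) did not. HSPA8 and HSPA4, not listed in every APOBEC1-only library, had 36.9, 49.6 and 32.9, and 32.6, 48.1 and 72.1, in the Ribo-STAMP libraries.

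Per kilobase of coding sequence, the members' mean Ribo-STAMP editing spanned 14.01 to 21.3 edited reads per 100 covering reads in HEK293T and 1.48 to 13.9 in untreated MDA-MB-231. In HEK293T Ribo-STAMP the order was HSPA9 at 21.3 ± 4.35 edited reads per 100 covering reads per kilobase (SD, n = 3), HSPA8 at 20.5 ± 4.51, HSPA4 at 20.2 ± 7.88, HSPH1 at 15.2 ± 6.47 and HSPA5 at 14.01 ± 1.81. Every pair of neighbours in that order overlapped between libraries, while all 3 HSPA5 libraries (12.5 to 16.01) lay below those of HSPA8 (16.98 to 25.6) and HSPA9 (17.3 to 25.96). In untreated MDA-MB-231 the order was HSPH1 at 13.9 ± 0.868 (n = 2), HSPA4 at 11.6 ± 0.426, HSPA9 at 11.4 ± 0.277, HSPA5 at 3.03 ± 0.0512 and HSPA8 at 1.48 ± 0.0213. Only HSPA4 and HSPA9 overlapped there, and the order with CoCl2 was the same, from 16.8 for HSPH1 to 1.42 for HSPA8. HSPA8 thus lay above HSPA5 in HEK293T Ribo-STAMP and below it in MDA-MB-231.

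The lines also differed in how HSPA8 stood beside HSPA5. By coverage HSPA8 ranked 4 and 6 among 8295 and 8074 listed genes in untreated MDA-MB-231, and 367, 191 and 451 among 4723, 4495 and 5037 in HEK293T Ribo-STAMP. HSPA5 ranked 14 and 28, and 31, 17 and 10. The ratio of HSPA8 to HSPA5 coverage was 1.59, 2.13, 2.23 and 2.12 in the MDA-MB-231 libraries (untreated, then CoCl2) and 0.234, 0.266 and 0.111 in HEK293T Ribo-STAMP. No MDA-MB-231 library overlapped a HEK293T library in this ratio. Kit, induction time and genome build differ between the lines, and their part was not tested.

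Across all MDA-MB-231 genes, listed isoforms with higher coverage had lower editing per read. In both lines an isoform is listed only with at least 1 edited read, so an isoform of few reads cannot show a low value. The part of this in the class levels was not tested. In untreated replicate 1, isoforms under 100 reads had 24.8 edited reads per 100 covering reads, those of 300 to 1000 reads 14.6, those of 1000 to 3000 reads 6.76 and those over 3000 reads 2.06. HSPA8, at 6715 reads, had 2.84 and HSPA5, at 4219 reads, 6.02 in that library. HSPA8 was above the level of its coverage class in all 4 MDA-MB-231 libraries, and HSPA5 in 3, lying below it in CoCl2 replicate 1 (6.01 against 6.94). The class levels are not divided by coding length, and the part of length in these differences was not tested. In HEK293T Ribo-STAMP the values of the 2 classes that could be set beside these did not fall: isoforms under 100 reads had 28.9 to 29.6 and those of 300 to 1000 reads 42.7 to 45.3, and 1 to 7 isoforms per library were above that. In every HEK293T Ribo-STAMP library HSPA5 (24.5, 31.4 and 26.5) lay below the class of 300 to 1000 reads. HSPA8 lay above the class of its coverage in each of them.

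The base before the edited C differed in the same order. In MDA-MB-231, 86.6% of listed HSPH1 positions, 82.4% of HSPA4, 70.5% of HSPA9, 38.1% of HSPA5 and 24.7% of HSPA8 positions followed A or U, against 76.7% over all genes. The make-up of the coding sequences did not follow that order: A or U precedes 52.0% of coding C in HSPA8, 51.9% in HSPA5, 46.4% in HSPA9, 51.6% in HSPA4 and 54.8% in HSPH1. In HSPA8 only 3 of 116 coding C after A were listed (2.59%), with 41 of 106 after U (38.7%) and 79 of 109 after C (72.5%). In HSPH1 it was 84 of 132 after A (63.6%) and 7 of 108 after C (6.48%). Counted by edited reads in place of positions, 35.3 to 51.8% of HSPA8 edits per library followed A or U.

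**Figure D2:**
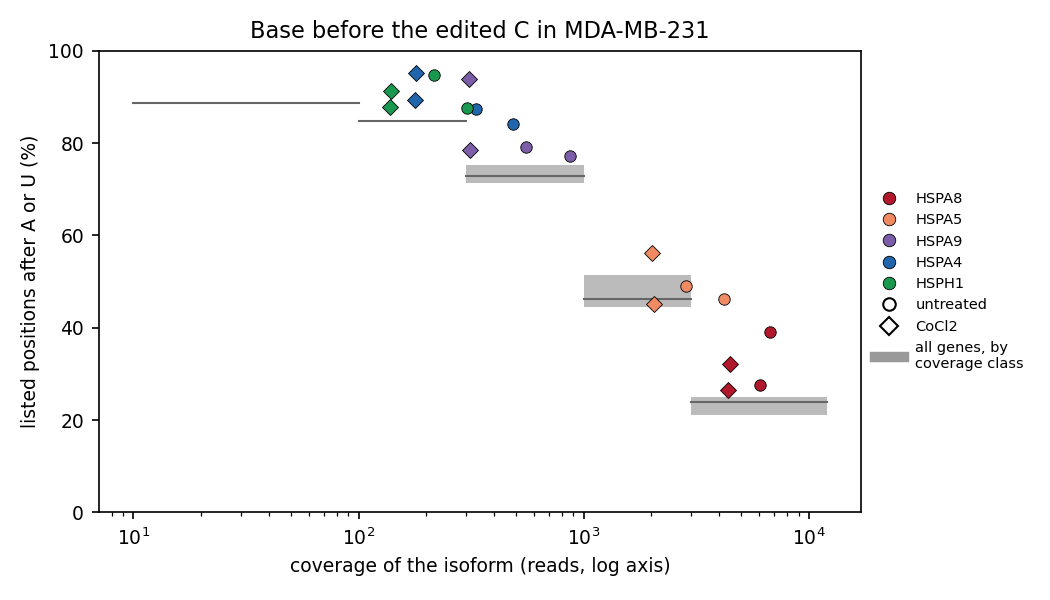
Share of listed MDA-MB-231 positions that follow A or U, in percent, against the coverage of the member's main isoform (log axis), with 1 point per member and library (circles untreated, diamonds CoCl2). Grey bands span the 4 libraries for all genes in a coverage class and fall from 88.4 to 89.0% under 100 reads to 21.1 to 24.9% over 3000 reads, and the members run from HSPH1 and HSPA4 at the upper left to HSPA8 at the lower right.

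No position of any gene was listed in all 4 MDA-MB-231 libraries, and the sources used here name no step that removed them. Positions in 3 of the 4 libraries made up 35.0% of the 180 HSPA8 positions, 28.8% of the 215 in HSPA5, 20.7% of the 174 in HSPA9, 15.9% of the 170 in HSPA4 and 13.5% of the 170 in HSPH1, against 11.5% over all genes. Among HSPA8 positions the share after A or U was 5.08% for those in 1 library, 21.4% for those in 2 and 46.0% for those in 3. Among HSPA5 positions it was 10.5, 44.8 and 69.4%. In both genes the positions found in more libraries were more often after A or U. The part of absent positions in the low editing of HSPA8 and HSPA5 in MDA-MB-231 was not tested, and their level there is of the listed positions only.

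The members were carried by few isoforms. HSPA5 and HSPA4 had 1 listed isoform each, and the main isoform held at least 97.5% of the coverage of HSPA8, 99.0% of HSPA9 and 87.5% of HSPH1 in every library. Coverage of HSPH1 changed along the coding sequence, from 302 reads in the first 20% of coding bases to 125 in the last 20% in untreated replicate 1, from 215 to 103.5 in untreated replicate 2, and from 138 to 54 and 140 to 60 in the CoCl2 libraries. In HSPA4 it went from 450 to 494 in untreated replicate 1 and from 289 to 335 in untreated replicate 2.

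CoCl2 treatment of MDA-MB-231, used to mimic hypoxia, was compared with no treatment to ask how transcripts and their ribosome editing respond. Coverage of HSPA5, HSPA9, HSPA4 and HSPH1 was lower with CoCl2, at 48.9 to 64.8% of the untreated mean, and HSPA8, which did not pass, was at 77.7%. Edited reads were called lower for HSPA9 only, and editing per covering read was called for no member. The 2 libraries per group limit every call made here, and no member's call held whichever library was left out.

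HSPA4, an HSP110 exchange factor, was covered by 460 and 314 scaled reads in untreated replicates 1 and 2 and by 183 and 196 with CoCl2. HSPA9 was covered by 817 and 522, and 318 and 342. HSPH1 was covered by 308 and 225, and 156 and 175. Both CoCl2 libraries lay below both untreated libraries for these genes, and untreated replicate 1 was above replicate 2 each time. HSPA5 was covered by 3985 and 2680 reads untreated and 2071 and 2250 with CoCl2. HSPA8 was covered by 6342 and 5719, and 4612 and 4762. These groups did not overlap either, though the drop in HSPA8 was smaller. With 2 against 2 libraries, groups that are apart reach an exact permutation p of 0.333 at best, two-sided. The share of all genes with groups apart is not given here, so the members do not stand out by it.

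The log2 coverage change was −1.002 ± 0.22 (SE) for HSPA4, −0.98 ± 0.22 for HSPA9, −0.67 ± 0.23 for HSPH1, −0.60 ± 0.20 for HSPA5 and −0.36 ± 0.17 for HSPA8, with adjusted p in limma of 0.00303, 0.00297, 0.0231, 0.0199 and 0.092. So 4 of 5 members tested fell, where 19% of the 5673 genes fell and 24.5% rose. The median was −0.67 over the members and −0.04 over all genes.

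Coverage changed with transcript length as well, by −0.52 on the log2 scale per doubling between the groups and by −0.29 between untreated replicates 2 and 1. With that trend taken out of each library, 1 member of 5, HSPA9, was still called lower (−0.73, adjusted p = 0.0114 in limma), against 9.01% of all genes lower and 9.73% higher. HSPA4 stood at −0.49 (adjusted p = 0.0555), HSPA8 at −0.27, HSPH1 at −0.15 and HSPA5 at −0.13. HSPA9 and HSPA8 have the shortest transcripts of the 5 (2825 and 2463 bases). Leaving out a library leaves 1 in a group, and calls then came and went for the members as for all genes. As fitted, the coverage change then ran from −1.30 to −0.67 for HSPA9 and from −1.27 to −0.73 for HSPA4. It ran from −0.89 to −0.46 for HSPH1, from −0.88 to −0.32 for HSPA5 and from −0.43 to −0.29 for HSPA8.

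**Figure D3:**
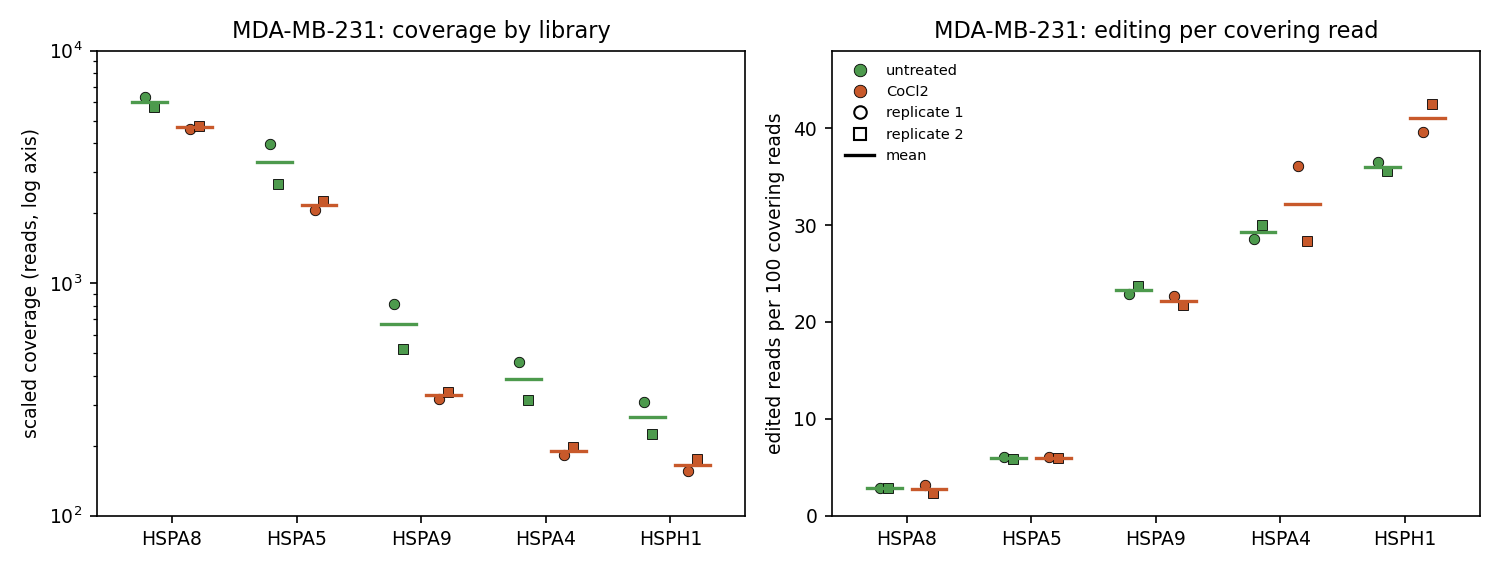
Left, scaled coverage in reads (log axis), and right, edited reads per 100 covering reads, of the 5 members in the 4 MDA-MB-231 libraries, with 1 point per library and a bar at the group mean. Coverage was below both untreated points in both CoCl2 libraries for every member, and the share of all genes that did so is not given here. Mean editing per covering read was 2.87 untreated and 2.75 with CoCl2 for HSPA8 and 36.0 and 41.1 for HSPH1.

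Edited reads moved with coverage. HSPA9 carried 187 and 127 edited reads untreated and 73.0 and 73.7 with CoCl2. HSPA4 carried 131 and 95.3, and 65.8 and 55.3. HSPA5 carried 240 and 159, and 124 and 133. HSPA8 carried 182 and 169, and 147 and 112, and HSPH1 112 and 81.0, and 61.7 and 73.7. The groups were apart for all 5 genes, which is weak evidence with 2 against 2 libraries, and the share over all genes is not given here. Only the HSPA9 change passed (log2 −1.06 ± 0.30 SE, adjusted p = 0.0396 in limma). That is 1 of 5 members, against 2.88% of 4097 genes lower and 12% higher. The others were −0.88 for HSPA4 (adjusted p = 0.0667), −0.60 for HSPA5 (0.153), −0.49 for HSPH1 (0.258) and −0.45 for HSPA8 (0.247) in limma. With the length trend taken out HSPA9 no longer passed (−0.94, adjusted p = 0.064 in limma), against 1.35% of all genes lower and 1.76% higher. With TMM scaling of the edited reads, genes called higher and lower went from 493 and 118 to 207 and 194, the median of all genes from 0.19 to −0.01, and HSPA4 passed beside HSPA9.

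The members' share of all edited reads of a library was 0.510 and 0.417% untreated and 0.266 and 0.265% with CoCl2. The 2 groups did not overlap (exact permutation tests of 2 against 2 libraries cannot go below p = 0.333, two-sided).

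Editing per covering read was not called for any member. HSPA5 had 6.02 and 5.88 edited reads per 100 covering reads untreated and 6.01 and 5.97 with CoCl2. HSPA8 had 2.84 and 2.90, and 3.17 and 2.34. HSPA9 had 22.9 and 23.7, and 22.7 and 21.7. The groups overlapped for HSPA5 and HSPA8, and for HSPA9 the CoCl2 libraries lay just below. HSPA4 had 28.5 and 30.03, and 36.1 and 28.3, and HSPH1 36.5 and 35.6, and 39.6 and 42.5, with the groups apart for HSPH1 alone of the HSP110 pair. The logit changes and their 95% intervals in limma were 0.01 (−0.35 to 0.37) for HSPA5, −0.08 (−0.50 to 0.35) for HSPA8, −0.06 (−0.53 to 0.40) for HSPA9, 0.13 (−0.41 to 0.68) for HSPA4 and 0.23 (−0.37 to 0.82) for HSPH1. Limma called 0% of 5673 genes in either direction, with 421 higher and 64 lower at an unadjusted p under 0.05. With 2 libraries a group, even changes beyond these intervals went uncalled, such as BNIP3 at 1.07 (adjusted p = 0.517 in limma). The lack of a call thus does not show that editing per read was unchanged.

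Other genes of the HSP70 cycle did not move as 1 block in CoCl2 coverage. Of 4 other HSP70 and HSP110 genes tested, 2 fell, HSPA4L (−1.18) and HYOU1, an exchange factor of the endoplasmic reticulum (−0.94), and the median was −0.67. Of 19 J-domain proteins tested, 2 rose (DNAJC8 at 0.56 and DNAJC9 at 0.58) and 5 fell (DNAJB6 at −0.71, DNAJA2 at −0.75, DNAJA3 at −1.08, DNAJC5 at −1.06 and DNAJC10 at −0.92), with a median of −0.11. The 3 most edited that did not pass were DNAJA1 (0.05), DNAJB1 (−0.14) and DNAJC7 (−0.19). These are log2 changes, read beside a median of −0.04 over all genes, of which 24.5% rose and 19% fell. With the length trend taken out, DNAJB6 (−0.83) and DNAJC9 (0.91) still passed and HSPA14 newly did (−0.67), while HSPA4L (−0.59), HYOU1 (−0.43), DNAJA2 (−0.40), DNAJA3 (−0.89), DNAJC5 (−0.53), DNAJC8 (0.19) and DNAJC10 (−0.29) no longer passed.

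Of the nucleotide exchange factors outside the HSP110 family, 3 of 6 tested rose and 1 fell. Those that rose were BAG1, from 129 ± 15.2 to 260 ± 25.2 scaled reads (SD, n = 2 each), HSPBP1, from 95.3 ± 1.25 to 185 ± 19.2 and SIL1, the exchange factor of HSPA5, from 151 ± 21.9 to 273 ± 13.8. BAG2 fell (−0.64), while GRPEL1, the exchange factor of HSPA9, was at 0.51 and BAG3 at −0.16, and the median was 0.68. Of 6 partners and regulators, STUB1, a ubiquitin ligase bound to HSP70 (1.06), and TOMM34 (0.53) rose, while STIP1, which links HSP70 to HSP90, was at −0.08 and HSF1, the heat shock transcription factor, at 0.21. With the length trend taken out, BAG1 (1.44) and SIL1 (0.60) still passed, GRPEL1 passed as well (0.75), and HSPBP1 (0.47), STUB1 (0.49), TOMM34 (0.37) and BAG2 (−0.09) did not.

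Most HSP90 genes and chaperonins fell. HSP90B1 went from 1328 ± 518 to 537 ± 29.03 scaled reads (log2 −1.25), HSP90AB1 changed by −1.13 and HSP90AA1 by −1.10, while the mitochondrial TRAP1 stood at 0.05, and the median of these 4 HSP90 genes was −1.11. All 3 that fell still passed with the length trend taken out (−0.69 to −0.99). Of 10 chaperonin genes 6 fell, among them HSPD1, which folds proteins in mitochondria (−0.87), CCT4 (−0.74) and CCT6A (−0.55), and 1 rose, HSPE1 (0.67), with a median of −0.56. CCT3, the most edited of them, was at 0.30. With the length trend taken out HSPE1 turned to −0.22 and CCT6A to −0.33, neither past the threshold, while TCP1, CCT2, CCT4, CCT8 and HSPD1 were still called lower (−0.46 to −0.91).

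Stress lists gave a mixed picture. Of 8 genes of endoplasmic reticulum stress tested beside HSPA5, SDF2L1 (1.09) and MANF (0.93) rose and PDIA4 fell (−0.83), while CALR (−0.08), PDIA6 (−0.44) and CANX (−0.42) did not pass, and the median was −0.04. Of 7 metal and heat stress genes, 4 rose: HSPB1 (0.86), MT2A (0.76), MT1X (1.30) and SQSTM1 (0.64). Of 10 hypoxia genes 6 rose, among them PGK1 (1.05), ENO1 (0.84) and ALDOA (1.28), and the glucose transporter SLC2A1 fell (−0.58). With the length trend taken out, SDF2L1, MANF, HSPB1, MT2A, MT1X and SLC2A1 (−0.14) no longer passed, while SQSTM1, PGK1, ENO1 and ALDOA did. PDIA4 was still called lower (−0.54) and PDIA6 newly was (−0.41), so no endoplasmic reticulum stress gene tested was then called higher. Genes named outside the 4 most edited of each list were chosen after their values were seen.

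**Figure D4:**
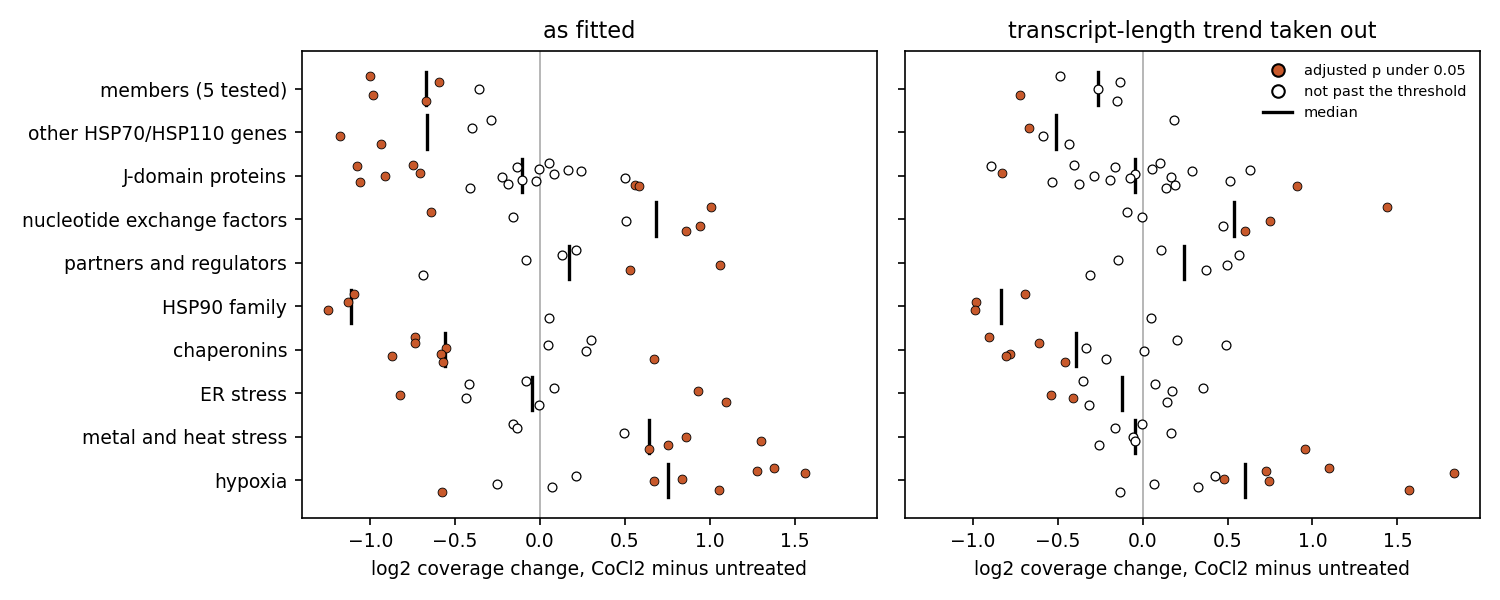
Log2 coverage change, CoCl2 minus untreated, of every tested gene of 10 lists in MDA-MB-231, as fitted (left) and with the transcript-length trend taken out (right), with filled points at an adjusted p under 0.05 and a bar at the list median. The members' median moved from −0.67 to −0.27, and the HSP90 genes kept 3 filled points on both sides.

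In the HEK293T comparison every tested gene of these lists was called higher in edited reads with Ribo-STAMP, as nearly all genes that passed the filter were. The median was 4.58 over the 5 members, 4.88 over 4 HSP90 genes, 3.50 over 9 chaperonins and 3.30 over 3 J-domain proteins, beside 3.75 over all genes. With Ribo-STAMP HSP90B1 carried 462 ± 102 edited reads (SD, n = 3), the highest mean of the chaperones in these lists, and 13.2 ± 4.197 with the unfused APOBEC1. As fitted, HSPA4 (5.38) and HSPA8 (5.07) differed by more than any HSP90 gene (4.71 to 5.05). The lead of each over HSP90B1, the highest of these, was smaller than its SE of 0.62. HSPA9 and HSPH1 differed by less than the J-domain protein DNAJC10 (4.14). This order depends on the 1 added before the log. With 4 added, the differences were 4.08 for HSPA4, 4.03 for HSPA5, 3.54 for HSPA9, 3.40 for HSPA8 and 3.11 for HSPH1. The HSP90 values with 4 added are not given here, so the order against them was not checked at that setting. No test was made between lists.

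Over all 10 libraries the genes most like each member in their pattern of edited reads were found by Euclidean distance on the log2 scale, centred within each line, among 551 genes tested in both lines. They were SEPTIN2 (0.94) and ACTR3 (0.99) for HSPA8, OAT (0.63) and COPA (0.84) for HSPA5, CDC5L (0.77) and CAP1 (0.78) for HSPA9, HSPD1 (0.69) and DLD (1.06) for HSPA4, and EIF4G2 (0.89) and EIF4G1 (1.18) for HSPH1. The median distance to all genes was 2.09 for HSPA9 to 3.09 for HSPH1.

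Promoter sequence is shown because 4 of the 5 members tested fell in coverage with CoCl2, and known stress elements are unequally spread among the members. All 7 members had a promoter entry in RefSeq (GRCh38.p14), and the 250 bases before each start were searched on both strands for a heat shock element (GAANNTTC) and an endoplasmic reticulum stress element (CCAAT, any 9 bases, then CCACG). The first matched 5.78% and the second 0.0740% of 35116 promoters. Matches are in capitals, written on the strand of the gene.
HSPA8, first match: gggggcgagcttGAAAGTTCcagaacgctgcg
HSPA8, second match: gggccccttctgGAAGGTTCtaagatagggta
HSPA1A: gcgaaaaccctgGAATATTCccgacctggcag
HSPA1B: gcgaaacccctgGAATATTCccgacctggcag
HSPA5: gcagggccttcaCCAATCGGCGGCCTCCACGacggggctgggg
The HSPA8 matches begin 230 and 50 bases before the start (chr11:123062347-123062378 and chr11:123062167-123062198), those of HSPA1A and HSPA1B 106 and 105 bases before (chr6:31815425-31815456 and chr6:31827621-31827652), and the HSPA5 match, of the second motif, 66 bases before (chr9:125241379-125241421). HSPA9, HSPA4 and HSPH1 had no match of either motif in this window. A match describes these letters only and is not a measured site.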

How the data were processed

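The members and gene lists were chosen with earlier results of these data known. The authors deposited 1 table per library, in which each entry pairs 2 whole-number read counts, read here as edited reads and coverage of a coding position in an isoform (the files have no header, so this reading is from the values). The pair sits in 1 cell, so limma on log values was used in place of a count model. The sources used here do not give the aligner, edit caller, filters or strand. Per the submitters' processing notes the builds were hg19 and hg38, with no word on which file used which. Of MDA-MB-231 entries, 99.95 to 99.96% lay in their own gene's GENCODE 29 coding sequence, and of HEK293T entries 2.35 to 4.72%.

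Each library's depth was set by its median coverage ratio over shared isoforms, those listed in all libraries of the line (405 for HEK293T and 7313 for MDA-MB-231). Coverage per gene used the same isoforms with trimmed-mean (TMM) scaling. Editing per covering read used the log2 ratio of edited to unedited reads (logit), with 0.5 added to each. A gene was tested with 10 or more edited reads in at least the smaller group's number of libraries, or with a mean coverage of 10 or more. Of the 7 members, 5 passed for edited reads in each line, and 3 (HEK293T) and 5 (MDA-MB-231) for coverage. Tests used limma 3.58.1 (R 4.3.3) on log2(value + 1) or the logit, with an intensity trend, two-sided, Benjamini-Hochberg adjusted over all genes tested, threshold 0.05, and were tested on simulated data. All members are named. Of each list, the up to 4 genes with the most edited reads in the line are named, of each member the 2 nearest patterns, and of its 2 most edited positions per line those that show an edit best. The lists were other HSP70 and HSP110 genes, J-domain proteins, nucleotide exchange factors, partners and regulators, HSP90 genes, chaperonins, endoplasmic reticulum stress, metal and heat stress, and hypoxia genes. Whether equal replicate numbers pair libraries was checked by correlating deviations from the group means. In HEK293T coverage all 3 pairs were over 0.1 (0.230, 0.441 and 0.580), and in every other comparison at least 1 pair was not. The block changed no call there. Alternatives were other scalings, filters, pseudocounts, a length correction and leaving out each library.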

Additional observations from a re-analysis of the deposited data

How the results depend on the processing

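Of 317 refits of single members, 271 kept their direction and their side of the threshold, 26 kept the direction and lost the call, 7 kept it and gained one, and 13 changed sign, none past the threshold before or after. The length correction turned HSPH1 coverage in HEK293T from 0.01 to −0.20. In MDA-MB-231 editing per read, centring and the length correction turned HSPA5 from 0.01 to −0.18 and −0.16, and HSPA4 from 0.13 to −0.062 and −0.036. Leaving out a library gave −0.080 to 0.079 for HSPA9 and −0.33 to 0.63 for HSPH1 in HEK293T coverage, and in MDA-MB-231 editing per read −0.29 to 0.14 for HSPA8, −0.0047 to 0.028 for HSPA5 and −0.039 to 0.31 for HSPA4. With 2 libraries per group in MDA-MB-231, leaving out 1 library changed the calls.

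In HEK293T, TMM scaling left 0 members and 25 of 654 genes higher in edited reads. TMM factors taken from all genes instead, chosen after seeing the data, gave 4 members and 361 genes, and in MDA-MB-231 2 members lower, 332 genes higher and 214 lower. With no filter 2265 of 7004 genes were higher. The gene called lower was lost (0) with no filter, with limma-voom and with both position filters. Leaving out a library gave 5 members, 757 to 1064 genes higher and 0 to 1 lower, and in coverage 0 to 4 lower. For editing per read, centring left 1 of 3 members, 73 genes higher and 53 lower, the length correction 1 member, 65 and 56, and leaving out a library 3 to 4 members, 366 to 603 higher and 0 to 1 lower.

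In MDA-MB-231 edited reads, members called lower went from 1 to 0 with no filter, with positions covered by at least 20 reads and with the length correction, and to 2 with TMM scaling. Genes higher and lower were 0 and 0 with no filter, 207 and 194 with TMM scaling and 72 and 55 with the length correction. With positions covered by at least 20 reads 125 genes were higher, and with a pseudocount of 4 187 were lower. Leaving out a library gave 0 to 4 members, 2 to 1067 genes higher and 3 to 580 lower. It was 4 members without untreated replicate 2 and 0 without either CoCl2 library. In coverage the length correction left 1 member, 551 genes higher and 510 lower, and leaving out a library 0 to 5 members, 0 to 2007 genes higher and 7 to 1861 lower. The cause was not tested.

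With the replicate block, 5 members were higher in HEK293T edited reads and 3 in editing per read, and in MDA-MB-231 1 was lower in edited reads (783 genes higher, 304 lower) and 4 in coverage, so no member's count changed. Same-numbered MDA-MB-231 libraries correlated by 0.02 in edited reads, 0.02 in coverage and −0.01 in editing per read, and in HEK293T edited reads by 0.09, 0.12 and 0.33. In HEK293T not every library correlated best with its own number. Summing HSPA1A with HSPA1B changed no count.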

Other observations

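HSPA5 and HSPH1 were also read at their second most edited MDA-MB-231 positions. In HSPA5 this position, chr9:125236672 in exon 8 of 8, followed A and carried 13 of 9040 reads. In HSPH1 it was chr13:31149956 in exon 8 of 18, carried 6 of 656 reads and would read as a stop codon when edited. Both counts cover only the 3 libraries that list the position. Positions whose edit would make a stop codon made up 12.4% of those listed in HSPA8, 12.1% in HSPH1, 7.51% in HSPA9, 6.51% in HSPA5 and 6.47% in HSPA4, beside 6.14% over all genes. Such C make up 7.26, 9.77, 10.3, 6.13 and 11.4% of all coding C in these genes, in the same order. HSPA4 and HSPH1, the HSP110 pair, share 67.3% of aligned coding bases, close to the 67.9% shared by HSPA8 and HSPA5.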
